A study of Mus musculus and Rattus norvegicus with 35 samples.

Results

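Astrocyte genes are 31 genes known for their expression in astrocytes, picked by symbol and described here in 7 functional classes: cytoskeleton and calcium binding (Gfap, S100b), membrane transport and junctions, enzymes, receptors, secreted proteins, metallothioneins, and the pair Sox9 and Ttyh1. All 31 were rows of the mouse gene table of 24601 genes. In rat, 28 were rows of the table of 22409 genes, and Dio2, Mt1 and Mt2 were not found under those symbols. The circular RNA tables held 18 circular RNAs of these host genes among 28482 in mouse, and 26 among 18075 in rat.

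The study measured linear and circular RNA in neural tissue by RNA sequencing, in C57BL/6 mice and Sprague Dawley rats. The mouse hippocampus was sampled at embryonic day 18 (E18) and postnatal days 1 (P1), 10 (P10) and 30 (P30), with 2 libraries a stage. Single mouse libraries came from hippocampal synaptosomes and the homogenate, and from the neuropil and somata layers of area CA1, all at 4 weeks. Adult mice gave 3 libraries a tissue for brain, heart, liver, lung and testis, of which 1 was from 14-week and 2 were from 20-week animals, and 1 further 14-week brain library was made from poly(A) RNA. The rat libraries were 2 from hippocampal cultures given 40 µM bicuculline for 12 h, 2 from cultures given water, and 1 each from CA1 neuropil and somata at 4 weeks. The cultures were dissociated primary hippocampal neurons after 28 days in vitro, and bicuculline blocks GABA-A receptors and so raises network activity. The labels name no genetic change in any group, and all libraries but the poly(A) one were rRNA-depleted.

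Astrocytes are glial cells that clear glutamate and potassium from around synapses, supply neurons with metabolites, couple to each other through gap junctions and wrap blood vessels with endfeet. In rodents they arise from radial glia around birth, multiply in the first postnatal weeks and then mature while synapses form. Their mature transcripts include transporters, channels and metabolic enzymes, and some of their mRNAs are carried into fine processes that touch synapses.

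Gene levels are in TPM, an abundance corrected for gene length and scaled to the same total in every library. Leaving the poly(A) library aside, 11728 to 15605 genes reached 1 TPM in a mouse library, and 13007 to 13971 in a rat library. The second P30 library held 9.54% of its TPM in 3 gene models with repeat-like sequence, against 0.002% to 1.24% in the other 7 hippocampal libraries, and counts are given below with and without it. In whole tissue, more cells of a type and more RNA per cell cannot be told apart. The labels do not say whether replicates came from separate animals, so p-values measure only the spread between these libraries.

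The first question was how the astrocyte genes changed while the hippocampus developed. At P30, 29 of the 31 were higher than at E18 and 0 were lower (limma, Benjamini-Hochberg adjusted p under 0.05), where 29.5% of all 15444 genes tested were higher and 26.8% lower. The median log2 difference was 2.60 over the 31 genes and 0.01 over all genes. Together they took 0.150% and 0.161% of TPM in the E18 libraries, 0.241% and 0.267% at P1, 0.583% and 0.577% at P10, and 1.02% and 0.978% at P30. Relative to its own P30 mean, the median gene stood at 16.1% at E18, 31.8% at P1 and 63.4% at P10. Without the second P30 library, 28 were higher and 0 lower. The 12 largest P30 over E18 differences were those of Gpr37l1, S100b and Ntsr2, then of Aqp4 (3.96), Clu (3.42), Glul (3.32), Agt (3.11), Gjb6 (3.01), Mt1 (2.97), Acsbg1 (2.93), Pla2g7 (2.89) and Sparcl1 (2.84), with adjusted p of at most 4.55e-06. All are differences of log2(TPM + 1).

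**Figure D1:**
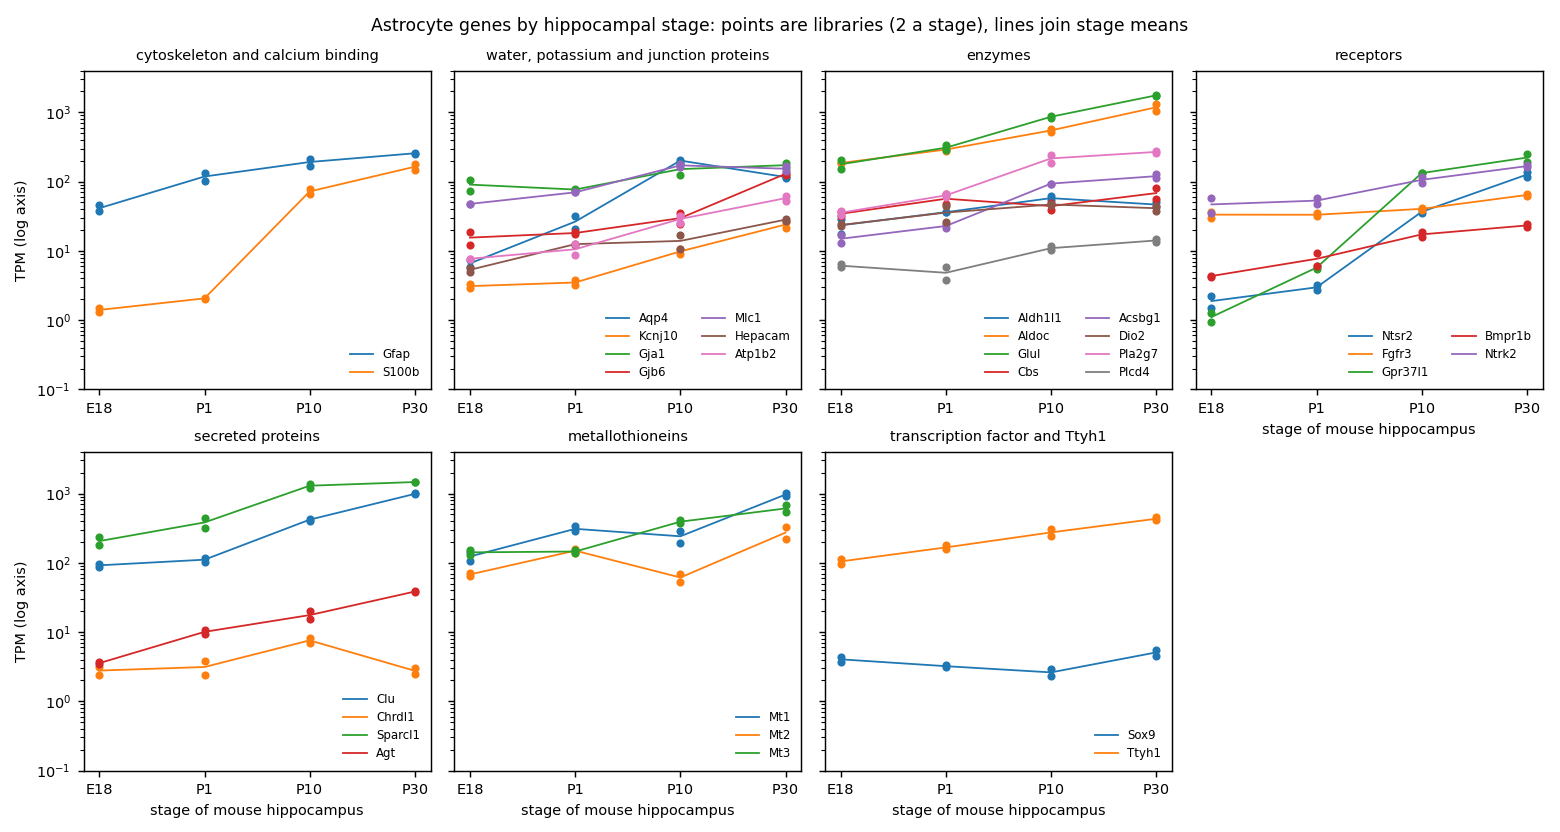
TPM of the 31 astrocyte genes (log axis) in mouse hippocampus at E18, P1, P10 and P30, in 7 panels by functional class; points are libraries, 2 a stage, and lines join stage means. Most lines climb from left to right, while Chrdl1, Aqp4, Mlc1, Aldh1l1 and Dio2 had their highest mean at P10.

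Among the structural genes, Gfap encodes the intermediate filament of astrocytes. Gfap measured 45.3 and 37.3 TPM at E18, 103 and 134 TPM at P1, 214 and 169 TPM at P10, and 260 and 252 TPM at P30. It climbed in every interval by its means, with P30 above E18 by 2.61 ± 0.18 on the log2(TPM + 1) scale (standard error, adjusted p = 2.93e-06). S100b, a calcium-binding protein that astrocytes also release, measured 1.49 and 1.31 TPM at E18, 2.00 and 2.12 TPM at P1, 78.0 and 66.2 TPM at P10, and 180 and 148 TPM at P30. Almost all of its change lay after P1, with P10 above P1 by 4.57 ± 0.17 (adjusted p = 2.22e-06).

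The membrane proteins that handle water, potassium and cell contact numbered 7, and all 7 were higher at P30 than at E18. Aqp4, the water channel of astrocyte endfeet, measured 5.81 and 7.38 TPM at E18, 20.9 and 31.9 TPM at P1, 208 and 194 TPM at P10, and 118 and 114 TPM at P30. Its P10 libraries thus lay above those of every other stage. The difference of P30 from P10 was −0.78 ± 0.20 (adjusted p = 0.0176), a call that was lost in 4 of the 8 fits that left out 1 library, those without any 1 of the P10 or P30 libraries, while the difference stayed between −0.83 and −0.73.

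The connexins separated by timing. Gjb6, which encodes connexin 30, measured 12.2 and 18.8 TPM at E18, 17.6 and 18.6 TPM at P1, 35.1 and 24.3 TPM at P10, and 126 and 133 TPM at P30. P30 exceeded P10 by 2.11 ± 0.22 (adjusted p = 0.000272), the second largest difference among the 31 genes in that interval. Gja1, which encodes connexin 43, was already at 74.3 and 106 TPM at E18, with 75.3 and 78.1 TPM at P1, 126 and 177 TPM at P10, and 158 and 187 TPM at P30. Its P30 over E18 difference was 0.94 ± 0.21 (adjusted p = 0.00397).

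The potassium channel gene Kcnj10 (Kir4.1) measured 2.86 and 3.33 TPM at E18, 3.24 and 3.74 TPM at P1, 9.05 and 10.6 TPM at P10, and 21.5 and 26.4 TPM at P30. Mlc1, a membrane protein of endfeet, had 47.8 and 47.5 TPM at E18, 180 and 163 TPM at P10, and 167 and 140 TPM at P30. Its partner Hepacam (GlialCAM), an adhesion protein, had 5.63 and 5.01 TPM at E18, 17.2 and 10.6 TPM at P10, and 27.4 and 29.1 TPM at P30. Mlc1 reached its P30 range by P10, whereas Hepacam was higher at P30 than at P10 (1.01 ± 0.22, adjusted p = 0.00848), a call lost in 2 of the 8 fits that left out 1 library. Atp1b2, a beta subunit of the sodium pump, had 7.68 and 7.70 TPM at E18, 8.63 and 12.4 TPM at P1, 25.5 and 32.2 TPM at P10, and 53.2 and 62.0 TPM at P30.

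All 8 enzymes were higher at P30 than at E18. Glul, the glutamine synthetase that converts glutamate cleared from synapses, measured 150 and 206 TPM at E18, 285 and 332 TPM at P1, 831 and 897 TPM at P10, and 1726 and 1792 TPM at P30. It was the most abundant of the 31 at P30, and no 2 stages overlapped. Aldoc, a glycolytic aldolase, measured 185 and 186 TPM at E18, 279 and 302 TPM at P1, 568 and 529 TPM at P10, and 1327 and 1038 TPM at P30. Acsbg1, a fatty acyl-CoA synthetase, measured 13.1 and 16.8 TPM at E18, 21.2 and 24.5 TPM at P1, 93.5 and 93.6 TPM at P10, and 127 and 113 TPM at P30. The P30 over E18 differences were 3.32 ± 0.17 for Glul (adjusted p = 5.19e-07) and 2.93 ± 0.16 for Acsbg1 (adjusted p = 8.16e-07).

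Pla2g7, which breaks down platelet-activating factor, had 32.8 and 38.2 TPM at E18, 244 and 188 TPM at P10, and 259 and 278 TPM at P30. The other enzymes changed less. Aldh1l1, a folate enzyme widely used as a marker of the whole astrocyte population, had 17.6 and 29.2 TPM at E18, 36.3 and 36.0 TPM at P1, 53.5 and 61.8 TPM at P10, and 50.6 and 42.5 TPM at P30. Cbs, of the transsulfuration pathway, had 31.7 and 36.9 TPM at E18, 47.5 and 65.6 TPM at P1, 39.4 and 49.1 TPM at P10, and 55.9 and 80.5 TPM at P30. Aldh1l1 was near its P30 range by P10. Dio2, which activates thyroid hormone, had 24.2 and 22.9 TPM at E18, 26.4 and 45.0 TPM at P1, 45.5 and 47.8 TPM at P10, and 37.8 and 44.7 TPM at P30. The phospholipase gene Plcd4 had 6.43 and 5.79 TPM at E18, 3.84 and 5.80 TPM at P1, 10.2 and 11.7 TPM at P10, and 14.6 and 13.6 TPM at P30. The P30 libraries lay above the E18 libraries for each, and their log2 differences lay within the range of 0.78 to 2.75 that covered the 17 called genes outside the leading 12.

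All 5 receptors were higher at P30 than at E18. Gpr37l1, an orphan G protein-coupled receptor, measured 1.27 and 0.942 TPM at E18, 5.44 and 6.02 TPM at P1, 132 and 133 TPM at P10, and 251 and 193 TPM at P30. Its P30 over E18 difference of 6.72 ± 0.17 (adjusted p = 7.5e-08) was the largest of the 31, ahead of S100b at 6.10 ± 0.17 (adjusted p = 7.5e-08) and Ntsr2 at 5.47 ± 0.19 (adjusted p = 1.01e-07). Ntsr2, a neurotensin receptor, measured 2.25 and 1.51 TPM at E18, 2.75 and 3.20 TPM at P1, 38.5 and 34.7 TPM at P10, and 135 and 117 TPM at P30. Gpr37l1, S100b and Ntsr2 all stood over 100 TPM at P30 and under 3 TPM at E18.

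The growth factor receptors started higher and changed less. Fgfr3, a fibroblast growth factor receptor present in glial precursors, measured 36.8 and 29.8 TPM at E18, 34.7 and 31.7 TPM at P1, 42.1 and 38.7 TPM at P10, and 67.1 and 61.1 TPM at P30. Ntrk2, the receptor for brain-derived neurotrophic factor, measured 35.6 and 58.0 TPM at E18, 47.6 and 58.7 TPM at P1, 95.6 and 116 TPM at P10, and 161 and 173 TPM at P30. Neurons express Ntrk2 as well, and the gene table gives 1 value for all its isoforms. Bmpr1b, a bone morphogenetic protein receptor, measured 4.26 and 4.39 TPM at E18, 6.03 and 9.31 TPM at P1, 18.8 and 15.7 TPM at P10, and 24.1 and 22.4 TPM at P30.

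Of the 4 secreted proteins, 3 were higher at P30. Clu, the extracellular chaperone clusterin, measured 86.9 and 96.8 TPM at E18, 103 and 118 TPM at P1, 403 and 436 TPM at P10, and 975 and 1001 TPM at P30. Sparcl1 (hevin), which promotes synapse formation, measured 178 and 233 TPM at E18, 319 and 446 TPM at P1, 1212 and 1381 TPM at P10, and 1458 and 1473 TPM at P30. Agt, the angiotensin precursor, had 3.44 and 3.67 TPM at E18, 10.8 and 9.31 TPM at P1, 19.8 and 15.3 TPM at P10, and 38.7 and 38.2 TPM at P30. Clu more than doubled again after P10 by its means, while the Sparcl1 difference of P30 from P10 was 0.18 ± 0.19 (adjusted p = 0.504).

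Chrdl1, a bone morphogenetic protein antagonist that astrocytes secrete during synapse maturation, followed another course. It measured 2.42 and 3.13 TPM at E18, 2.42 and 3.83 TPM at P1, 7.05 and 8.11 TPM at P10, and 2.44 and 3.06 TPM at P30. Only its P10 libraries stood apart from the other stages. P10 exceeded P1 by 1.07 ± 0.23 (adjusted p = 0.0063), P30 was below P10 (−1.20 ± 0.23, adjusted p = 0.00455), and P30 did not differ detectably from E18 (−0.01 ± 0.23, adjusted p = 0.981).

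The metallothioneins, small metal-binding proteins, did not follow 1 course. Mt2 measured 71.4 and 64.3 TPM at E18, 139 and 161 TPM at P1, 69.8 and 52.8 TPM at P10, and 221 and 324 TPM at P30. It was higher at P1 than at E18 (1.13 ± 0.21, adjusted p = 0.0328), lower at P10 than at P1 (−1.28 ± 0.21, adjusted p = 0.00171) and higher at P30 than at P10 (2.12 ± 0.21, adjusted p = 0.00017). Mt1 measured 141 and 106 TPM at E18, 334 and 284 TPM at P1, 291 and 192 TPM at P10, and 1016 and 917 TPM at P30. Mt3, the form known from brain, measured 154 and 129 TPM at E18, 151 and 140 TPM at P1, 412 and 372 TPM at P10, and 675 and 543 TPM at P30. The metallothionein genes are alike in sequence, and how the deposited values divided reads between them was not tested.

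Sox9, a transcription factor of gliogenesis that marks astrocytes in the adult brain, measured 3.75 and 4.32 TPM at E18, 3.32 and 3.11 TPM at P1, 2.90 and 2.32 TPM at P10, and 5.58 and 4.58 TPM at P30. The P30 over E18 difference of 0.27 ± 0.19 missed the threshold (adjusted p = 0.258), although its P30 libraries lay above those of E18. P30 was above P10 by 0.75 ± 0.19 (adjusted p = 0.0176). Ttyh1, a membrane protein of neural stem cells and astrocytes, measured 113 and 96.2 TPM at E18, 178 and 156 TPM at P1, 304 and 245 TPM at P10, and 453 and 411 TPM at P30.

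The 3 intervals differed in how many genes were called. From E18 to P1, 9 of 31 were higher and 0 lower at P1, where 1.2% of all genes were higher and 0.524% lower. The called genes were Aqp4 (1.83 ± 0.20, adjusted p = 0.00686), Gpr37l1 (1.68 ± 0.17, adjusted p = 0.00585), Gfap (1.49 ± 0.18, adjusted p = 0.0106), Mt1 (1.33 ± 0.21, adjusted p = 0.0237), Agt (1.28 ± 0.18, adjusted p = 0.0163), Mt2 (1.13), Hepacam (1.09, adjusted p = 0.0447), Pla2g7 (0.82, adjusted p = 0.0437) and Glul (0.80, adjusted p = 0.0498). The other 22 genes lay between −0.31 and 0.88. Fewer of the 31 were called higher in each of the 8 fits that left out 1 library, and fewer of all genes were as well. In those fits the differences of the 9 called genes stayed above 0, from 0.58 to 1.03 for Glul and from 1.57 to 1.79 for Gpr37l1. With all libraries and an unadjusted p under 0.05, 19 passed, where 2341 of all 15444 genes did.

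At P10, 24 of 31 were higher than at P1 and 1, Mt2, was lower, where 17.2% of all genes were higher and 18.0% lower. S100b and Gpr37l1 led, at 4.57 ± 0.17 (adjusted p = 2.22e-06) and 4.31 ± 0.17 (adjusted p = 2.87e-06), then Ntsr2 at 3.24 ± 0.19 (adjusted p = 1.76e-05) and Aqp4 at 2.91 ± 0.20 (adjusted p = 2.53e-05). They were followed by Acsbg1 (1.99), Clu (1.91), Sparcl1 (1.78), Pla2g7 (1.75), Glul (1.49), Mt3 (1.42), Atp1b2 (1.38) and Mlc1 (1.28), with adjusted p of at most 0.00108. At P30, 17 of 31 were higher than at P10 and 2, Aqp4 and Chrdl1, were lower, where 17.0% of all genes were higher and 12.5% lower. Behind Mt2 and Gjb6, the largest were Mt1 at 2.03 ± 0.21 (adjusted p = 0.000258) and Ntsr2 at 1.75 ± 0.19 (adjusted p = 0.000272). Clu (1.24), Kcnj10 (1.20), S100b (1.17), Agt (1.10), Aldoc (1.10), Glul (1.03), Hepacam (1.01) and Atp1b2 (0.98) came next, with adjusted p of at most 0.00848. Fewer of the 31 were called higher or lower without the second P10 or the second P30 library, and fewer of all genes were as well. With any 1 library left out, the difference stayed between 1.85 and 2.37 for Gjb6 and between 1.73 and 2.33 for Mt1. For Chrdl1 it stayed between −1.315 and −1.076.

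Other genes of the lineage were taken as lists. Of 17 other astrocyte genes, 16 were higher at P30 than at E18 and 1 was lower, with a median log2 difference of 2.63. The glutamate transporter genes were among them, Slc1a2 at 839 and 818 TPM at P30 against 68.5 and 69.0 TPM at E18, and Slc1a3 at 424 and 395 TPM at P30 against 156 and 193 TPM at E18. The lower gene was Gli3, a Hedgehog pathway factor, at 1.98 and 2.03 TPM at P30 against 4.43 and 4.54 TPM at E18. Of 10 radial glia and progenitor genes, 0 were higher and 8 lower. Fabp7, a fatty acid binding protein of radial glia, had 240 and 159 TPM at P30 against 3266 and 2478 TPM at E18. Vim, an intermediate filament of precursors, had 68.8 and 59.5 TPM at P30 against 711 and 749 TPM at E18. Of 14 astrocyte lineage factors, 2 were higher and 6 lower, among them Nfib at 103 and 93.5 TPM at P30 against 260 and 257 TPM at E18. Genes associated with reactive astrocytes were divided, with 3 higher and 2 lower of the 10 tested. Serpina3n, a secreted protease inhibitor, was among the higher ones, at 37.2 and 40.1 TPM at P30 against 1.16 and 1.24 TPM at E18.

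Markers of other cells moved over the same interval. At P30 against E18, 9 of 9 oligodendrocyte, 9 of 9 microglia and 9 of 10 neuron markers were higher, and 6 of 6 proliferation genes were lower. Of 9 endothelial and mural markers 2 were higher and 3 lower, and of 6 choroid plexus and ependyma markers 1 was higher and 1 lower. The summed oligodendrocyte markers had 10693 and 9476 TPM at P30 against 57.3 and 63.2 TPM at E18. The summed microglia markers had 474 and 416 TPM at P30 against 114 and 137 TPM at E18, and the neuron markers 6275 and 5935 TPM at P30 against 1516 and 1701 TPM at E18. TPM are shares of a total, and the part of these shifts in the astrocyte values was not tested.

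The second question was how far these genes belong to the brain. Against the mean of heart, liver, lung and testis, 28 of 31 were higher in brain and 0 lower, where 45.4% of all 18966 genes tested were higher and 28.0% lower. The median log2 difference was 4.03 over the 31 genes and 0.34 over all genes. With libraries scaled by median-of-ratios size factors, which moved the median of all genes to −0.21, 25 were higher and 0 lower, against 5520 higher and 7769 lower of all genes, where TPM gave 8612 higher and 5307 lower. The 20-week libraries alone gave 27 higher and 0 lower. Every brain library exceeded every library of the other tissues for 21 of 31, against 18.6% of all genes.

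**Figure D2:**
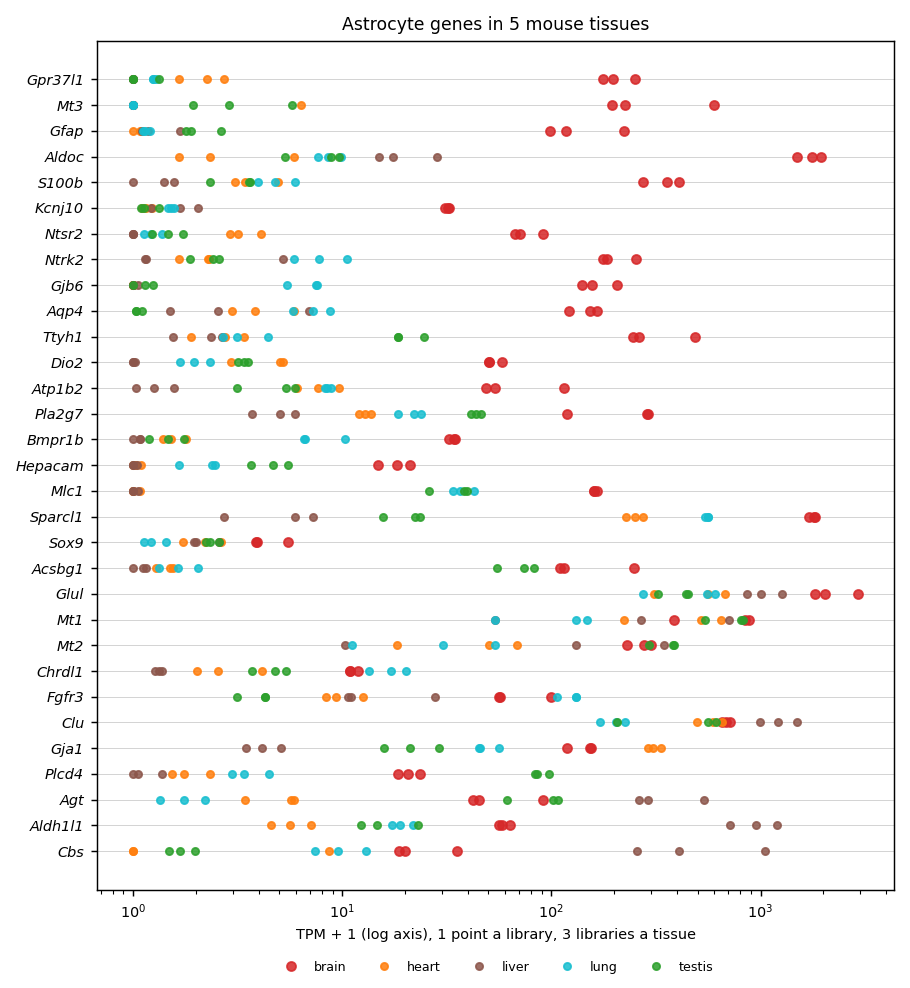
TPM + 1 (log axis) of the 31 astrocyte genes in brain, heart, liver, lung and testis of the mouse, 1 point a library and 3 libraries a tissue, ordered by the ratio of the brain mean to the highest other mean. From the top, 21 genes have all brain points to the right of the others, and the lower rows hold the 10 whose highest mean lay elsewhere.

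Gpr37l1 headed that order, with 249, 196 and 175 TPM in brain against at most 1.71 TPM in any other library. Mt3 had 597, 225 and 194 TPM in brain and at most 5.32 TPM elsewhere, and Gfap had 221, 117 and 97.0 TPM in brain and at most 1.63 TPM elsewhere. For Gfap and Mt3 the 14-week brain library was the highest of the 3. Aldoc had 1951, 1496 and 1755 TPM in brain and at most 27.5 TPM elsewhere. The largest differences from the 4 tissues were those of Aldoc (7.79 ± 0.31, adjusted p = 3.19e-11), Mt3 (7.58 ± 0.50, adjusted p = 7.54e-09), Gpr37l1 (7.29 ± 0.16, adjusted p = 8.97e-14) and S100b (6.87 ± 0.21, adjusted p = 2.5e-12). Gfap (6.67), Gjb6 (6.63), Ttyh1 (6.16), Ntrk2 (6.13), Ntsr2 (5.59), Aqp4 (5.55), Acsbg1 (5.33) and Sparcl1 (4.87) followed, with adjusted p of at most 3.62e-09.

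The 10 genes with their highest mean outside the brain fell to different tissues. Liver was highest for Cbs, Aldh1l1, Agt and Clu. Cbs had 34.2, 19.1 and 17.7 TPM in brain against 1045, 408 and 255 TPM in liver. Aldh1l1 had 62.5, 55.3 and 57.0 TPM in brain against 1202, 716 and 953 TPM in liver. Agt had 89.9, 44.1 and 41.2 TPM in brain against 535, 288 and 262 TPM in liver. These liver and brain values did not overlap for any of the 3, and brain was lower than liver by −4.34 ± 0.70 for Cbs (adjusted p = 6.81e-05), −3.98 ± 0.25 for Aldh1l1 (adjusted p = 3.06e-09) and −2.63 ± 0.36 for Agt (adjusted p = 1.62e-05). Clu was lower in brain by a smaller margin (−0.82 ± 0.32, adjusted p = 0.0341), a call lost in 5 of 15 fits that left out 1 library. Those were the fits without any 1 of the 3 brain libraries or without either 20-week liver library. In all, 25 were higher in brain than in liver and 4 lower, where 59.3% of all genes were higher and 11.4% lower.

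Heart, lung and testis each had fewer such genes: Gja1 in heart, Fgfr3 and Chrdl1 in lung, and Plcd4, Mt1 and Mt2 in testis. By means, Chrdl1 had 15.9 TPM in lung against 10.2 TPM in brain. Mt1 had 725 TPM in testis against 702 TPM in brain, and Mt2 had 352 TPM in testis against 268 TPM in brain. These differences of Chrdl1, Mt1 and Mt2 were not called. Gja1 had 118, 152 and 154 TPM in brain against 334, 305 and 289 TPM in heart, where connexin 43 couples muscle cells (−1.13 ± 0.21, adjusted p = 0.000403). Against heart, 28 were higher in brain and 1 lower, where 43.3% and 15.7% of all genes were. Fgfr3 had 99.0, 54.9 and 55.9 TPM in brain against 131, 130 and 105 TPM in lung (−0.84 ± 0.34, adjusted p = 0.0477). That call was lost in 10 of 15 fits that left out 1 library, and held in those without the 14-week brain or testis library or any 1 liver library. Against lung, 28 were higher in brain and 1 lower, where 28.6% and 28.9% of all genes were. Plcd4 had 22.5, 19.6 and 17.4 TPM in brain against 84.5, 96.8 and 82.6 TPM in testis (−2.10 ± 0.22, adjusted p = 7.27e-07). Against testis, 26 were higher in brain and 1 lower, where 47.5% and 27.5% of all genes were. Median-of-ratios scaling changed the split of all genes to 5567 higher in brain and 4370 lower for heart, where TPM gave 8217 and 2985. For liver it gave 6703 higher and 4465 lower, where TPM gave 11246 and 2160, and for testis 6323 higher and 7286 lower, where TPM gave 9016 and 5209. With that scaling 27 astrocyte genes were higher and 1 lower than in heart, 23 higher and 4 lower than in liver, and 23 higher and 2 lower than in testis.

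Mt1 and Mt2 varied most between libraries of 1 tissue. Mt2 had 275, 299 and 229 TPM in brain, while its liver libraries had 130, 343 and 9.34 TPM. Mt1 had 386, 882 and 838 TPM in brain, and 267, 706 and 52.6 TPM in liver. Mt1, Cbs and Clu did not pass against the mean of the 4 tissues (adjusted p = 0.0772, 0.0965 and 0.0986). Glul, though highest in brain at 2928, 2034 and 1821 TPM, was abundant everywhere, with 1269, 1007 and 862 TPM in liver and 272 TPM or more in each other library.

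The third question was where these transcripts lay within the hippocampus. Synaptosomes are pinched-off synaptic terminals isolated from a homogenate, and such preparations can carry pieces of glial processes. With 1 library a group there is no test, and a gene was counted where TPM + 1 differed at least 2-fold. In the synaptosome library, 23 of 31 were higher than in the homogenate and 0 lower, where 5.83% of all 14854 genes were higher and 14.0% lower. All 31 lay above 1, with folds of 1.22 to 9.40 and a median of 2.61, while the median log2 difference of all genes was −0.29. The 31 genes took 2.91% of TPM in the synaptosome library against 0.943% in the homogenate.

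Kcnj10 had 177 TPM in synaptosomes against 18.0 TPM in the homogenate, a fold of 9.40. Dio2 had 206 TPM in synaptosomes against 33.2 TPM in the homogenate (6.04-fold), and S100b had 753 TPM in synaptosomes against 127 TPM in the homogenate (5.89-fold). Gfap had 1004 TPM in synaptosomes against 218 TPM in the homogenate (4.58-fold). All 8 enzymes passed 2-fold, led by Dio2, Acsbg1 at 4.30-fold and Aldoc at 4.15-fold. Bmpr1b reached 4.24-fold and Mlc1 3.80-fold. Gja1 showed the smallest fold, with 105 TPM in synaptosomes against 85.9 TPM in the homogenate.

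The other glial markers did not all go the same way. Of 9 microglia markers, 8 were higher in synaptosomes, with a sum of 1430 TPM against 384 TPM in the homogenate. Of 9 oligodendrocyte markers, 1 was higher and 1 lower, with sums of 10760 TPM in synaptosomes and 6141 TPM in the homogenate. Of 10 neuron markers, 1 was higher and 4 lower, with sums of 4059 TPM in synaptosomes and 6286 TPM in the homogenate. Of 9 endothelial and mural markers, 0 were higher and 6 lower. Among 17 other astrocyte genes, 14 were higher and 0 lower. The part of other cells in the synaptosome values was not tested.

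In CA1, the neuropil layers hold dendrites, axons, synapses and glia, and the somata layer holds the packed cell bodies of pyramidal neurons. In mouse, 23 of 31 were at least 2-fold higher in neuropil and 0 lower, where 8.22% of all 14948 genes were higher and 0.97% lower. In rat, 13 of 28 were higher and 0 lower, where 8.35% of all 14164 genes were higher and 1.47% lower. The folds of neuropil over somata ran from 1.35 to 4.01 in mouse and from 1.09 to 2.84 in rat. How many of all genes lay above 1-fold was not counted, so the smallest folds are not set apart from a shift of the whole library. The median fold was 2.42 in mouse and 1.97 in rat. The rat count depended on the scale, and was 8 with median-of-ratios size factors and 8 with a pseudocount of 5 TPM. With those size factors the mouse count was 25.

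**Figure D3:**
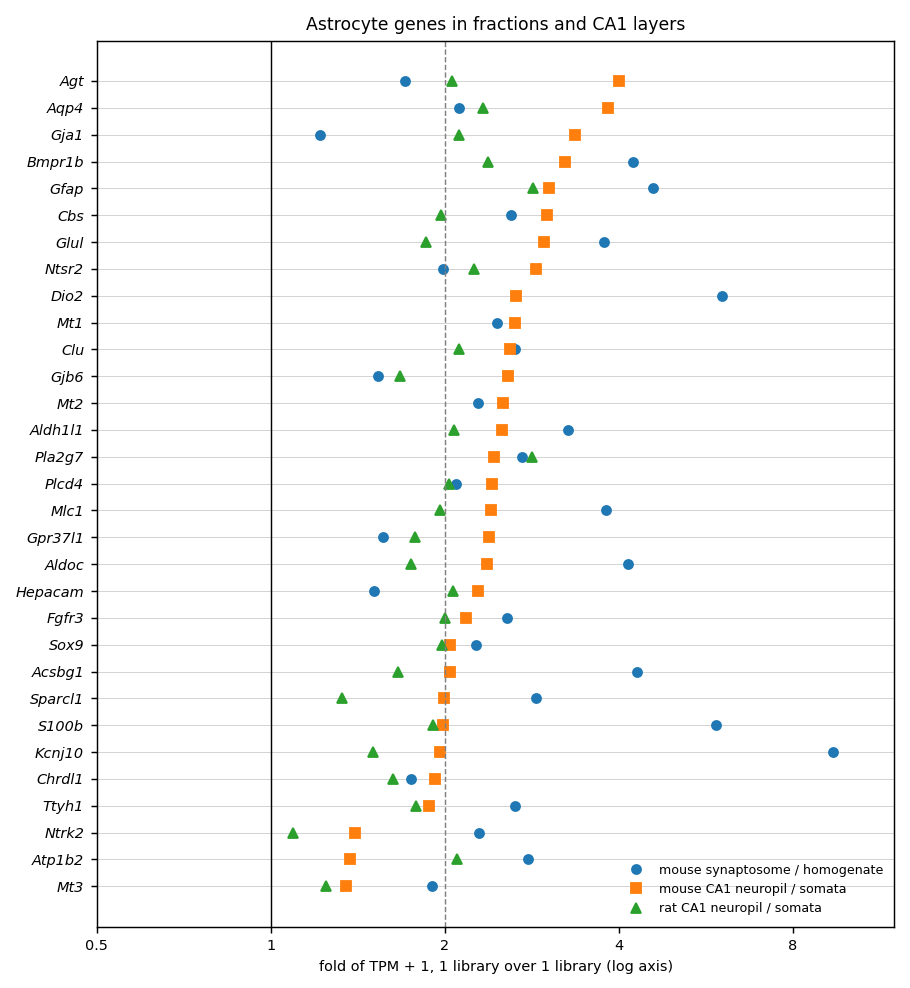
Fold of TPM + 1 (log axis) between single libraries for each astrocyte gene: synaptosome over homogenate in mouse, and CA1 neuropil over somata in mouse and rat; the solid line marks equal levels and the dashed line 2-fold. All points lie to the right of the solid line, Kcnj10 in synaptosomes being farthest at 9.40-fold.

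Agt led in mouse, with 47.8 TPM in neuropil against 11.2 TPM in somata (4.01-fold). In rat it had 248 TPM in neuropil against 120 TPM in somata. Aqp4 had 273 TPM in mouse neuropil against 70.3 TPM in somata (3.84-fold), and 579 TPM in rat neuropil against 248 TPM in somata (2.33-fold). Gfap had 452 TPM in mouse neuropil against 148 TPM in somata (3.03-fold), and 1843 TPM in rat neuropil against 647 TPM in somata (2.84-fold). Gfap thus showed the largest fold in rat, followed by Pla2g7 at 2.83-fold, with 65.2 TPM in neuropil against 22.4 TPM in somata.

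Some connexin and receptor genes also passed 2-fold between the layers in both species. The connexin gene Gjb6 and the receptor gene Gpr37l1 passed in mouse (2.57-fold and 2.39-fold) but not in rat (1.67-fold and 1.78-fold). Gja1 had 341 TPM in mouse neuropil against 101 TPM in somata (3.36-fold), and 495 TPM in rat neuropil against 233 TPM in somata (2.12-fold). Bmpr1b had 66.5 TPM in mouse neuropil against 19.9 TPM in somata (3.22-fold), and 34.9 TPM in rat neuropil against 14.1 TPM in somata (2.38-fold). Among the genes nearest to equal were Ntrk2 and Mt3. Ntrk2 had 233 TPM in mouse neuropil against 166 TPM in somata, and 135 TPM in rat neuropil against 123 TPM in somata. Mt3 had 620 TPM in mouse neuropil against 460 TPM in somata, and 4650 TPM in rat neuropil against 3731 TPM in somata.

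Most microglia markers and most endothelial and mural markers were also higher in neuropil. This held at 2-fold for 8 of 9 microglia markers in mouse and 7 of 9 in rat, and for 9 of 9 endothelial and mural markers in mouse and 6 of 8 in rat. Of the oligodendrocyte and neuron markers, 0 passed 2-fold in either direction in either species. In rat the summed oligodendrocyte markers were still higher in neuropil than in somata, by the values given below beside the cultures. The summed neuron markers had 4829 TPM in mouse neuropil against 5331 TPM in somata, and 3544 TPM in rat neuropil against 5126 TPM in somata. The part of the cell makeup of the layers in these folds was not tested.

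The fourth question was what the rat cultures held and whether bicuculline moved these genes. Although the labels name the cultures as neurons, the 28 astrocyte genes took 2.43% and 2.50% of TPM in the bicuculline cultures and 2.52% and 2.95% in the water cultures, against 2.31% in CA1 neuropil and 1.38% in CA1 somata. Gfap had 3597 and 7176 TPM in the water cultures against 1843 and 647 TPM in CA1 neuropil and somata. S100b had 1658 and 1781 TPM in the water cultures against 2396 and 1253 TPM in the CA1 layers. Markers of other glia were scarce: 9 oligodendrocyte markers summed to 197 and 459 TPM in the water cultures against 9825 and 5404 TPM in CA1 neuropil and somata, and 9 microglia markers to 0.15 and 70.1 TPM in the water cultures against 940 and 422 TPM in CA1 neuropil and somata.

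With every water culture at least 2-fold from every CA1 library in 1 direction, 1 of the 28 genes was higher in the cultures and 1 lower, where 1.99% of all 14591 genes were higher and 5.93% lower. Pla2g7 had 195 and 239 TPM in the water cultures against 65.2 and 22.4 TPM in CA1 neuropil and somata, a fold of 5.51 between geometric means. Gjb6 had 1.56 and 4.46 TPM in the water cultures against 125 and 74.4 TPM in CA1 neuropil and somata, a fold of 0.0383. The other connexin gene, Gja1, stood at 614 and 380 TPM in the water cultures and at 495 and 233 TPM in the CA1 layers. Of the connexin genes here, only Gjb6 thus lay below both CA1 layers in both water cultures. Agt had 69.3 and 60.1 TPM in the water cultures against 248 and 120 TPM in the CA1 layers.

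**Figure D4:**
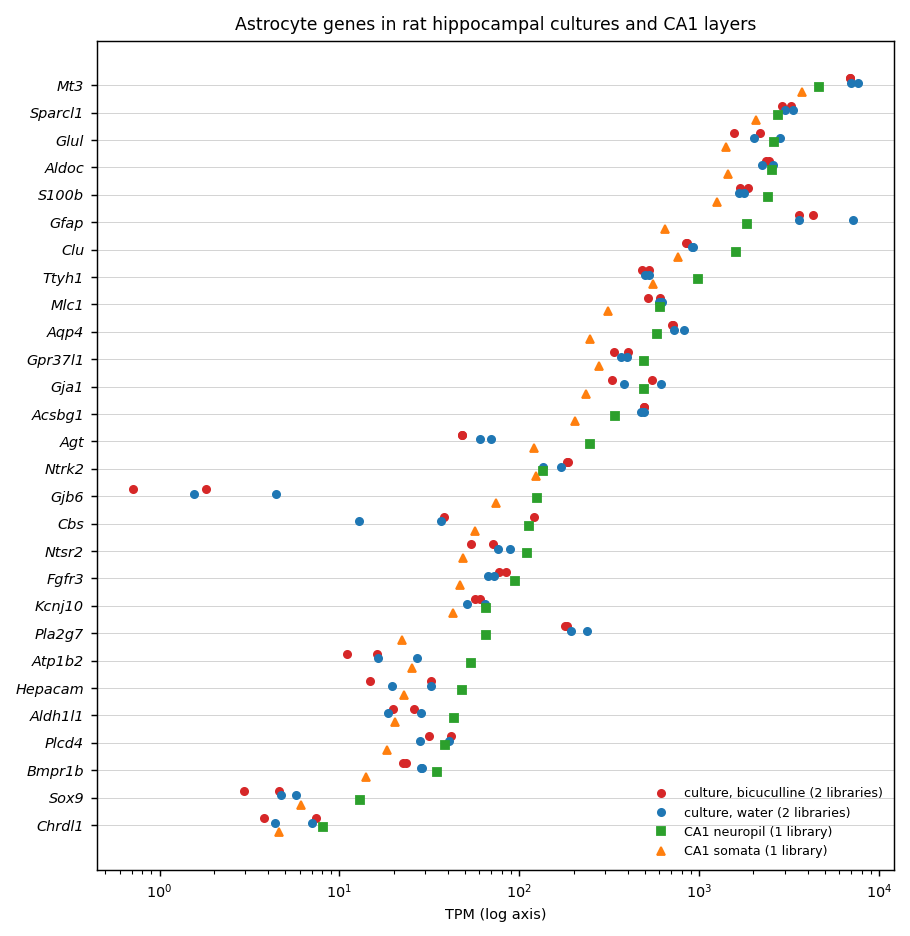
TPM (log axis) of the 28 astrocyte genes found in rat, in bicuculline cultures, water cultures, CA1 neuropil and CA1 somata, 1 point a library. Gjb6 stands under 5 TPM in all 4 cultures against 125 and 74.4 TPM in CA1, Pla2g7 is higher in the cultures than in CA1, and the bicuculline and water points lie close together for most genes.

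After 12 h of bicuculline, 0 of 28 were higher and 0 lower than with water (limma adjusted p under 0.05), where 2.06% of all 13341 genes were higher and 0.51% lower. Of all 13341 genes, 2636 passed at an unadjusted p under 0.05, and of the 28 astrocyte genes 1 did. That gene was Agt, with 47.7 and 48.0 TPM in bicuculline cultures against 69.3 and 60.1 TPM in water cultures (−0.42 ± 0.14, adjusted p = 0.181). Cbs had 120 and 37.9 TPM in bicuculline cultures against 36.5 and 12.8 TPM in water cultures (1.60 ± 0.68, adjusted p = 0.28), with a spread within each group wider than the gap between them. Ntsr2 had 70.9 and 53.9 TPM in bicuculline cultures against 88.3 and 75.9 TPM in water cultures (−0.40 ± 0.18, adjusted p = 0.305). The groups did not overlap for these 3 genes, nor for 10 others: both bicuculline libraries lay above both water libraries for 4 of the 28, where 20.9% of all genes did, and below them for 9, where 30.5% did. Gfap had 3565 and 4279 TPM in bicuculline cultures against 3597 and 7176 TPM in water cultures, and Sparcl1 had 3255 and 2896 TPM in bicuculline cultures against 3303 and 2979 TPM in water cultures. Over the 28 genes the differences ranged from −0.77 to 1.60, with a median of −0.09, beside −0.07 over all genes. Deviations of same-numbered cultures correlated at 0.588, though the labels do not say that a number marks a shared culture. With replicate number as a block the counts, given at the end, were no longer 0, where 11.2% of all genes were higher and 13.5% lower.

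The poly(A) and rRNA-depleted brain libraries of 14 weeks differed in some levels. Each was 1 library of its own sample, so RNA selection and sample cannot be told apart. The poly(A) brain library of 14 weeks had 9 of 31 genes at least 2-fold higher than the rRNA-depleted brain library of the same age and 1 lower, where 9.07% of all 15595 genes were higher and 15.9% lower. Atp1b2 had 749 TPM in the poly(A) library against 114 TPM in the rRNA-depleted one (6.52-fold), and Sox9 had 29.5 TPM in the poly(A) library against 4.48 TPM in the rRNA-depleted one (5.57-fold). Hepacam had 77.0 TPM in the poly(A) library against 13.8 TPM in the rRNA-depleted one (5.26-fold), and the metallothioneins Mt1, Mt2 and Mt3 were 5.13-fold, 2.34-fold and 3.38-fold higher. Bmpr1b was the lower one, with 7.79 TPM in the poly(A) library against 33.3 TPM in the rRNA-depleted library. The levels of Sox9, Hepacam, Atp1b2 and Bmpr1b given above come from rRNA-depleted libraries.

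Circular RNAs form when the end of a downstream exon is joined back to the start of an upstream one, and they were counted by reads across that junction. Of the 31 genes, 5 hosted a circular RNA in mouse (16.1%), where 36.3% of all 15444 expressed genes did, and 42.2% of those with a mean level at or above the lowest mean among the 31. In rat, 10 of 28 did (35.7%), where 32.8% of all 14114 genes did, and 38.2% of those with a mean level at or above the lowest mean among the 28. Reads were few: 256 in all over the mouse libraries, of which Ntrk2 had 125, Bmpr1b 70, Hepacam 55, Sparcl1 4 and Chrdl1 2, and 97 in rat, of which Ntrk2 had 76. Of the 4 genes with the highest mean TPM at P30, Glul, Aldoc and Clu had no circular RNA in the mouse table, while Sparcl1 had those with 4 reads.

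The junctions below carry most of these reads. Each line gives 40 bases 5′ to 3′ across a back-splice, the end of the last exon in capitals and the start of the first exon in lower case. The sequences are from GENCODE mouse transcripts of GRCm38, matched by exon lengths to the circular RNAs, whose positions are given in mm9.
Hepacam exons 4 to 5: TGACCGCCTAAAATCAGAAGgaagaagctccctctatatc
Ntrk2 exons 10 to 12: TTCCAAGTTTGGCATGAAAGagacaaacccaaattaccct
Ntrk2 exons 7 to 9: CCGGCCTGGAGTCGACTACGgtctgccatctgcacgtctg
Ntrk2 exons 7 to 12: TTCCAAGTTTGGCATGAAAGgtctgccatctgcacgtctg
Ntrk2 exons 3 to 6: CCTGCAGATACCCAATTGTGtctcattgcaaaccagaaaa
The third Ntrk2 line takes its capitals from the first and its lower case from the second, since it spans both sets of exons.

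The Hepacam circle lies at chr9:37189941-37191039 on the plus strand, is 174 bases long once spliced, all of them coding, and had 55 reads. The Ntrk2 circles lie on the plus strand of chromosome 13. Exons 10 to 12 (chr13:58973097-58979623, 234 bases) had 36 reads, exons 7 to 9 (chr13:58960530-58962916, 576 bases) had 24, exons 7 to 12 (chr13:58960530-58979623, 810 bases) had 17 and exons 3 to 6 (chr13:58939157-58948215, 371 bases) had 15. All 4 consist of coding bases of the 18-exon transcript. A further Ntrk2 circle of 1 block of 3034 bases (chr13:59227794-59230827) had 11 reads and matched no set of annotated exons. The leading Bmpr1b circle, of exons 3 to 9 (chr3:141519313-141543480, minus strand, 1093 bases), had 59 reads. It was deposited as 8 blocks, of which 2 touch each other and were joined, which leaves 7 to match the 7 exons.

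By library, the circular RNA reads of all 5 mouse hosts numbered 5 of 21105 and 3 of 17355 at E18, 13 of 24345 and 9 of 15927 at P1, 19 of 16991 and 23 of 19542 at P10, and 25 of 30684 and 21 of 30150 at P30. As shares these were 0.0237% and 0.0173% at E18, 0.0534% and 0.0565% at P1, 0.112% and 0.118% at P10, and 0.0815% and 0.0697% at P30. The share was highest at P10, but its denominator, all circular RNA reads, was larger at P30. A read was worth 0.576 and 0.489 RPM (reads scaled to library size) at P10, and 0.580 and 0.611 RPM at P30. On that scale the reads of these hosts were higher in both P30 libraries than in both P10 libraries. The shares thus do not show that the circles peaked before P30. Of the host genes, all but Chrdl1 had their highest mean TPM at P30. Bmpr1b circles had 2 and 0 reads at E18, 0 and 2 at P1, 7 and 7 at P10, and 7 and 7 at P30. Hepacam had 1 and 0 reads at E18, 6 and 2 at P1, 5 and 6 at P10, and 1 and 4 at P30.

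**Figure D5:**
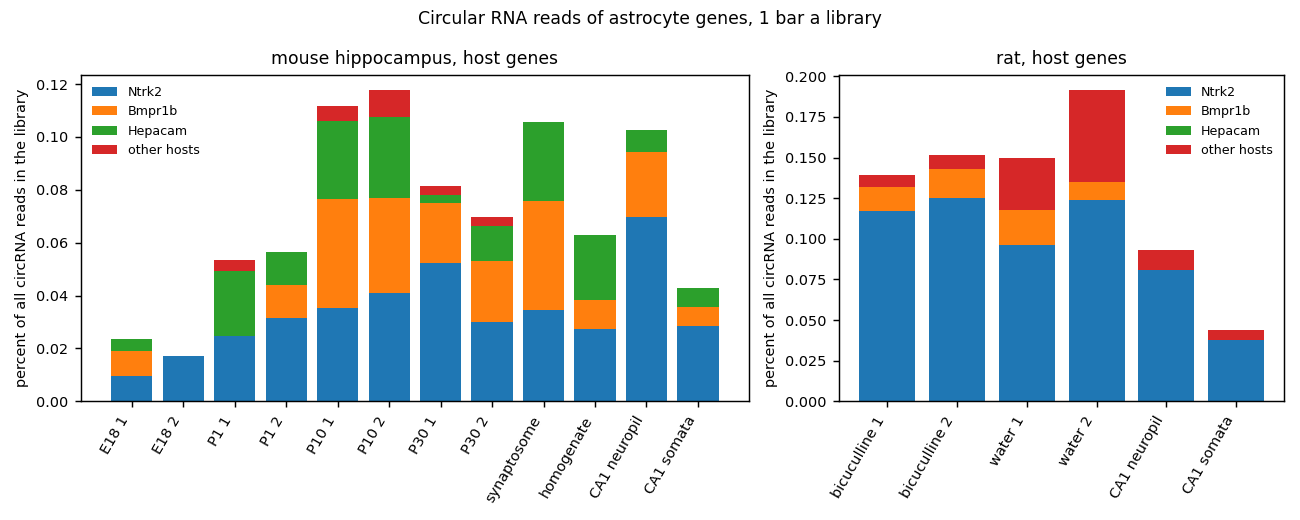
Circular RNA reads from astrocyte genes as a percent of all circular RNA reads (y axis), 1 bar a library, stacked by host: mouse hippocampus on the left, rat on the right. In mouse the P10 bars are the highest of the 4 stages, and in rat Ntrk2 makes up most of every bar.

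Tests on single circles had little to work with. Between P30 and E18, 13 were tested and 2 were higher at P30 with limma, where 6.27% of all 14200 circular RNAs were higher and 1.44% lower; edgeR on the recovered reads called 0 of the 13. The 2 were an Ntrk2 circle with 8 reads over all libraries (chr13:59139328-59161823) and the Chrdl1 circle with 2 reads (chrX:139745625-139762607), named after their values were seen because they lie under the minimum of 10 reads. To be tested, a circle needed reads in at least 2 stage libraries. Among those, both circles had reads only in the 2 P30 libraries. They thus entered the test only through P30, and the filter fixed their direction. The count of 2 fell to 0 without any 1 of the E18 or P30 libraries, and to 1 without either P1 library or the second P10 library. The Bmpr1b circle of exons 3 to 9 had a difference of 2.27 ± 0.77 (limma adjusted p = 0.171), and the Hepacam circle one of 1.22 ± 0.61 (limma adjusted p = 0.396).

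Between brain and the 4 other tissues, 3 circles were tested and all 3 were higher in brain with limma and with edgeR, where 47.7% of all 5594 were higher and 2.82% lower with limma. They were the Ntrk2 circle of exons 7 to 9 (0.91 ± 0.29, limma adjusted p = 0.0182), the Hepacam circle (0.99 ± 0.32, limma adjusted p = 0.0224) and a Bmpr1b circle with 6 reads (chr3:141525947-141543480, 1.25 ± 0.12, limma adjusted p = 1.01e-06), the last again named after its values were seen. To be tested, a circle needed reads in at least 3 tissue libraries. The Bmpr1b circle had 1 read in each of the 3 brain libraries and 0 in the other tissues. It thus entered the test only through brain, and the filter fixed its direction. The Ntrk2 circle had 2, 0 and 1 reads in the 14-week and the 2 20-week brain libraries, and 1 in the 14-week lung library. The Hepacam circle had 0, 2 and 1 reads in the same brain libraries, and 1 in each 20-week testis library. Both calls thus rest on few reads. With circular RNA totals made equal, 1 of the 3 was called, and leaving out a brain library left 1 without the 14-week library, 1 without the first and 0 without the second 20-week library. Over all circles of these hosts, tested or not, the circular RNA reads were 21, 8 and 5 in the brain libraries and 3 in all 12 libraries of the other tissues together.

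Synaptosomes had 46 reads of 43523 against 23 of 36520 in the homogenate, mouse CA1 neuropil 25 of 24376 against 6 of 13963 in somata, and rat CA1 neuropil 23 of 24727 against 7 of 16002 in somata. Each pair thus had the larger share in the fraction or layer where the genes themselves were higher, with no replicate. In the rat cultures the hosts had 19 of 13641 and 17 of 11206 reads with bicuculline against 14 of 9354 and 17 of 8879 with water. Of 10 circles tested there, limma called 1 higher and edgeR 0, where limma called 6.72% of all 4120 higher and 3.35% lower. That circle had 1 read in each bicuculline library and 0 with water. It thus passed the filter of 2 culture libraries only through bicuculline, which fixed its direction. The called circle, of Ntrk2, had 2 reads in all (chr17:8214658-8220870 in rn5) and was named after its values were seen; no call was left without any 1 of the 4 libraries.

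Ntrk2 circles were alike in the 2 species. Of its 10 mouse circles, 7 (70.0%) shared both the number of blocks and the spliced length with a rat circle of the same host, and 7 of its 11 rat circles (63.6%) did so in turn. Over all 3322 hosts with circular RNAs in both species, 10.2% of 21381 mouse and 14.3% of 15245 rat circular RNAs did. The shared sizes included 371, 576 and 810 bases, those of exons 3 to 6, 7 to 9 and 7 to 12. In rat the most read Ntrk2 circle was that of 371 bases, with 17 reads (chr17:8423121-8431594 in rn5), followed by that of 810 bases with 14 (chr17:8389977-8409613) and 1 block of 3148 bases with 13 (chr17:8156913-8160060). The mouse circle of 234 bases had no rat circle of that size and block number in the table, and 0 of the Bmpr1b and Sparcl1 circles matched.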

How the data were processed

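Per the submitters' processing notes, CASAVA 1.8.2, TopHat2 2.0.6 and Cufflinks 2.2.1 were used with builds mm9 and rn5. The circular RNA caller was not given in the sources used here, nor the role of each tool. Gene levels are TPM as deposited by the authors. Circular RNA values are RPM as deposited by the authors (reads scaled to library size); 100% of mouse and 99.8% of rat values lay within 0.1 of a whole read, so reads were recovered. A read was worth 0.448 to 2.14 RPM in mouse libraries. Block lengths were used as deposited. RNA was extracted with TRIZOL, per the labels.

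Members and lists were chosen with earlier results of these data known. Groups follow the labels, and 1 PacBio sample of P30 was not analysed here; it bears the same sample number as the second P30 library, whose column was taken as the short-read one. limma 3.58.1 (R 4.3.3, trend, two-sided, Benjamini-Hochberg over all features, threshold 0.05) was fitted to log2(TPM + 1) of genes at 1 TPM or more in at least 2 libraries (3 for tissues), with stages, tissues or cultures in 1 fit each; such differences understate changes of low genes. All 31 mouse and 28 rat genes passed. Circular RNAs used pseudocounts of 0.578 RPM (hippocampus), 1.18 (tissues) and 0.837 (cultures), and edgeR 4.0.16 as an alternative. Single libraries were compared by a 2-fold rule on TPM + 1. Scripts were tested on simulated data. Up to 12 genes a direction past the threshold, and circles with 10 reads or more, are named with their differences. Mouse libraries other than poly(A) held 1231 to 43523 circular RNA reads, rat libraries 8879 to 24727. The alternatives were other pseudocounts, filters, scalings, folds, age terms, replicate blocks and leaving out libraries.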

Additional observations from a re-analysis of the deposited data

How the results depend on the processing

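The counts of astrocyte genes higher at P30 than at E18 (29) and in brain than in the 4 tissues (28) stayed within 1.5 times under every alternative run, with 28 to 29 and 27 to 29 when 1 library was left out. Other counts moved. Without the filter, P1 over E18 had 1 higher gene, brain under lung 0, P30 over E18 circles 0, brain circles 6 and bicuculline circles 0. Brain under lung was 0 with a pseudocount of 0.1 TPM, 2 with 5 TPM and 2 with age as a term. Brain under testis was 2 with median-of-ratios scaling, 2 in the 20-week libraries and 2 there with the replicate block. Equal circular RNA totals gave 1 higher in brain and 0 with bicuculline. edgeR gave 0 circles for P30 and 0 for bicuculline, and a pseudocount 5 times larger gave 1 for P30. At 3-fold, 10 genes were higher in synaptosomes, 6 in mouse neuropil, 0 in rat neuropil and 0 in cultures; rat neuropil had 8 with a pseudocount of 5 TPM and 8 with median-of-ratios scaling. The cause was not tested.

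Replicate numbers only name samples: deviations of same-numbered libraries correlated at 0.0555 to 0.351 between stages, 0.0212 to 0.106 between tissues and 0.588 in the single pair of culture groups. With the replicate block, P1 over E18 had 14 higher genes (2.72% of all genes), P10 under P1 2 (22.3%), bicuculline 1 higher (11.2%) and 5 lower (13.5%), and P30 over E18 circles 1.

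Leaving out 1 library gave 2 to 8 higher genes for P1 over E18, 19 to 24 for P10 over P1 with 1 lower, 11 to 19 higher and 1 to 2 lower for P30 against P10, and 0 lower for P30 against E18. Brain had 27 to 28 higher than heart, 25 to 27 higher and 3 to 4 lower than liver, 28 to 29 higher and 0 to 1 lower than lung, and 26 to 27 higher and 1 to 2 lower than testis. Bicuculline stayed at 0 in both directions. Circles higher were 0 to 2 at P30, 0 to 3 in brain and 0 with bicuculline. With 1 library left in a group, that library is assumed to vary like the others. Fewer of all genes were also called higher at P1 than at E18 in each such fit. The same held for all genes at P30 against P10 without the second P10 or the second P30 library.

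Signs turned for 3 Ntrk2 circles of few reads. That of exons 7 to 12 at P30 against E18 (−0.01) was 0.023 with edgeR and ranged from −0.84 without the first E18 library to 0.82 without the second. With 1 water culture left out, the rat circle at chr17:8156913-8160060 (−0.33) ranged from −0.84 to 0.18, and that at chr17:8389977-8409613 (0.35) from −0.17 to 0.87, turning without the second.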
